A study of Xenopus laevis with 8 samples.

Results

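The genes described here are those of mitosis and chromosome segregation, read in animal caps of *Xenopus laevis*, the pluripotent ectoderm of the blastula. A probe set, the group of short probes that reads one transcript on the array, was included when its annotated symbol named a mitotic or cyclin-dependent kinase (*aurk*, *plk*, *cdk*, *bub1*, *ttk*, *wee1*), a gene of the *cdc20* to *cdc29* series, a centromere or kinetochore protein, a spindle checkpoint protein, a subunit of the anaphase promoting complex, a condensin or SMC protein, an augmin subunit (*haus*), or one of a few single genes such as *birc5*, *incenp*, *cdca8*, *racgap1*, *espl1* and *rcc1*. Cyclins and kinesins were not included. This rule found 97 of the 15491 probe sets tested. Of these, 95 carried 1 symbol and together named 81 genes, and 2 were annotated to both homoeologs of a gene. The members above background on at least 4 of 8 arrays numbered 94 (96.9%, against 82.2% of all probe sets), those above it on all 8 arrays 79 (81.4%, against 66.8%), and 1 (against 7.7%) was above it on none. The symbols also take in kinases whose main work lies outside mitosis, such as *cdk5*, *cdk9* and *cdk19*.

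The 4 EFTF arrays read caps of embryos injected with RNA for the eye field transcription factors *pax6*, *tbx3*, *rax*, *nr2e1*, *six3* and *six6* together with *otx2*. The 4 GFP arrays read caps injected with fluorescent protein RNA alone, called GFP in the labels and Venus YFP in the methods. By the methods, embryos given the factors received Venus YFP RNA as well. RNA entered the embryo at early cleavage, so the factors were not restricted to a cell type of the cap, and caps were grown to the equivalent of stage 15. Each array read a pool of caps. The series describes 4 biological replicates, and the methods describe triplicates taken on separate days from separate females. Which array came from which day is not given. The source of each array is therefore not settled, and part of the spread between arrays may be technical.

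A cell enters mitosis when CDK1, bound to a cyclin, is released from inhibition by WEE1 through CDC25 phosphatases. Condensin compacts the chromosomes, kinetochores assembled on the centromeres bind spindle microtubules, and the spindle checkpoint holds back the anaphase promoting complex until every kinetochore is attached. The complex then marks securin and cyclin B for destruction, separase cuts cohesin, and the sister chromatids part. The first cleavages of the frog run largely on maternal stores of these proteins.

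Median log2 intensity was 4.07 to 4.24 per array, and 72.4% to 83.4% of probe sets lay above background, set by control probe sets that match no frog transcript. The 3′ minus 5′ difference of the actin control probe sets, a sign of RNA quality, was -0.77 to -0.42 on the log2 scale in EFTF and -1.08 to -0.04 in GFP caps, and that of the GAPDH control probe sets was 2.13 to 2.82 and 1.99 to 2.82. GFP replicate 1 has a GFP title and an EFTF source label. Over all probe sets its mean correlation was 0.972 with the other GFP arrays and 0.946 with the EFTF arrays, while its best single match was EFTF replicate 1 (r = 0.983). EFTF replicate 1 in turn correlated at 0.983, 0.967, 0.969 and 0.959 with GFP replicates 1 to 4. With EFTF replicates 2 to 4 it correlated at 0.976, 0.962 and 0.943. Arrays with the same replicate number deviated together from their group means, least so those of replicate 3. Results are therefore also given with the replicate number as a block. Of 21 probe sets for neural progenitor markers, 17 were higher on average in EFTF caps. Without the block 8 were called higher (against 0.762% of all probe sets), and with it 10 (against 4.91%). In such bulk samples, fewer cells of a type and less RNA per cell cannot be told apart.

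Most mitosis genes were slightly higher in EFTF caps, but the one member that passed the test without the block, *rcc1.S*, was lower. Across the array, 1.42% of probe sets were called in that fit. On average 81 of the 97 members were higher in EFTF caps (83.5%, against 54.1% of all probe sets) and 16 were lower. The median log2 change was 0.31 over the members and 0.02 over all probe sets. The differences were small, since 48 of the members that were higher on average differed by less than 0.5 on the log2 scale, 30 by 0.5 to 1 and 3 by more. In 14 members (14.4%, against 5.42% of all probe sets) the EFTF arrays lay wholly above the GFP arrays, and in 1 (against 4.75%) wholly below. At least 2-fold differences were seen in 3 members that were higher (against 2.76% of all probe sets) and 1 that was lower (against 3.84%). The limma test without the block called 0 members higher, against 0.762% of all probe sets. The lowest adjusted p among the members that were higher on average was 0.056. An unadjusted p below 0.05 was found for 26 that were higher (26.8%, against 9.3% of all probe sets) and 2 that were lower (against 7.98%). Leaving out EFTF replicate 1 raised the number of members called without the block to 7, of which 6 were higher. Leaving out EFTF replicate 2, 3 or 4 or GFP replicate 2 or 3 lowered it to 0. The share of all probe sets called in these fits is not given, so the counts cannot be read as particular to the members.

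With the replicate block, 15 members were called, 14 of them higher and 1 lower. The block called 10.2% of all probe sets, 4.91% higher and 5.25% lower, beside 14.4% and 1.03% of the members. The genes were *mad2l1.S*, *bub1b.L*, *mad2l2.S* and *bub3.L* of the checkpoint role, and *nuf2.L*, *ndc80.S*, *cenpl.S* and *mis12.L* of the kinetochore. The others were *cdca8.L*, *cdc23.S*, *cdc25a.L*, *plk1.S* (by 2 probe sets), *racgap1.L* and *rcc1.S*. These calls depended on the pairs included. Without pair 1 there were 24 calls among the members (23 higher), where the whole array had 1829 (11.8% of all probe sets). Without pair 2, 3 or 4 there were 0, where the whole array had 0, 42 and 0. The plot of changes by role shows all members, and adjusted p-values from the fit with the block are named as blocked.

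**Figure D1:**
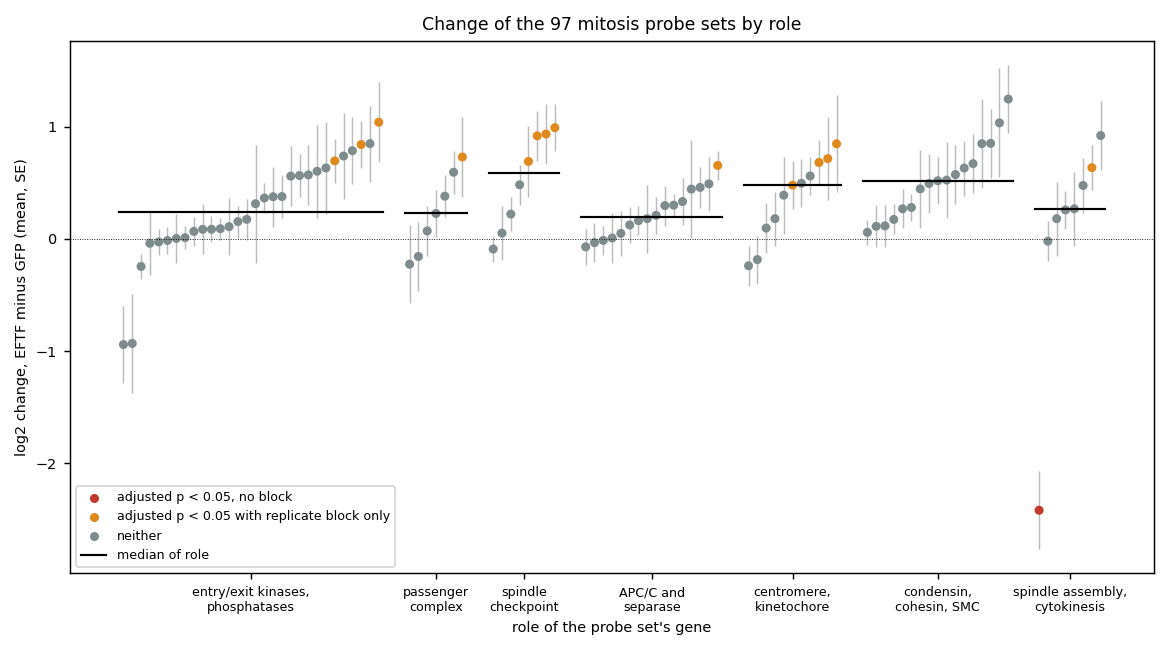
Log2 change (EFTF minus GFP, with SE, 4 arrays per group) of each of the 97 probe sets, ordered by size within 7 roles. Most points lie a little above 0, all those of the condensin, cohesin and SMC group do, and the lowest point, at -2.42, is *rcc1.S*.

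*rcc1* encodes the exchange factor that loads Ran with GTP on chromatin and so guides spindle assembly and nuclear import. The brighter *rcc1.S* probe set read 5.35, 5.14, 4.19 and 5.14 on EFTF replicates 1 to 4 and 6.69, 7.09, 7.67 and 8.04 on GFP replicates 1 to 4. Every EFTF array lay below every GFP array, and EFTF replicate 3 was the lowest. The probe set fell by 2.42 on the log2 scale (SE 0.35, adjusted p = 0.0232, blocked adjusted p = 0.0265), from 7.37 ± 0.60 to 4.96 ± 0.52 (SD, n = 4).

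The other *rcc1* probe sets did not share this change. A dimmer one with the symbol *rcc1.S* read 3.93, 4.12, 4.74 and 4.81 in EFTF and 3.73, 3.83, 3.77 and 4.38 in GFP caps. Its groups overlapped, and each EFTF array was above its GFP partner (0.48 ± 0.24, adjusted p = 0.371, blocked adjusted p = 0.105). The homoeolog *rcc1.L* differed by 0.27 ± 0.33 (adjusted p = 0.774). Differences between these probe sets were not tested.

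The call for the brighter *rcc1.S* probe set was lost without EFTF replicate 2 or 3 (adjusted p = 0.0562 in both fits), EFTF replicate 4 (adjusted p = 0.0552), GFP replicate 2 (adjusted p = 0.0937) or GFP replicate 3 (adjusted p = 0.095). Its log2 change stayed between -2.64 and -2.16 when single arrays were left out. Markers of multiciliated cells were lower in the same caps. Of their 17 probe sets, 16 were lower on average in EFTF caps, and 2 were above background on no array. Without the block 4 were called lower (against 0.658% of all probe sets), and with it 13 (against 5.25%). Their summed linear intensity was 319 to 1251 on EFTF arrays and 1896 to 2954 on GFP arrays, and their part in the *rcc1.S* value was not tested. Ionocyte markers were lower too, with a median of -2.82 over 8 probe sets, and their part was not tested either.

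**Figure D2:**
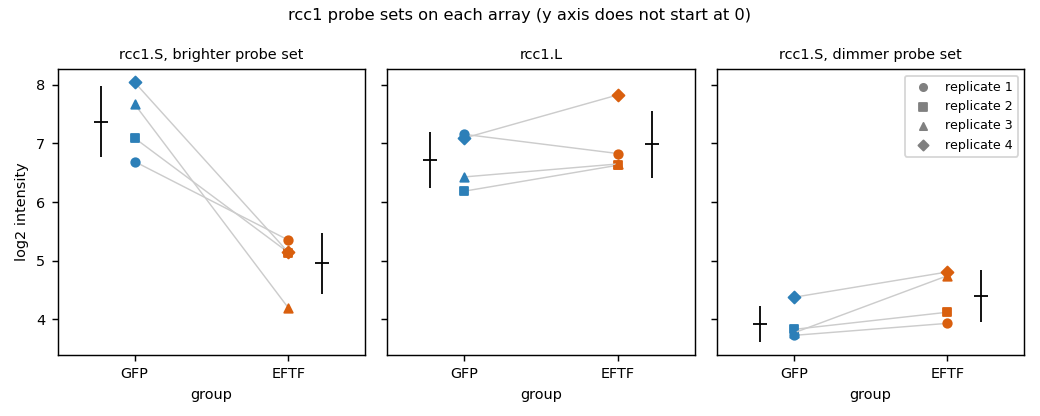
Log2 RMA intensity of the 3 *rcc1* probe sets on each array, with same-numbered GFP and EFTF arrays joined and group means with SD (n = 4) beside the points. The brighter *rcc1.S* probe set is lower on every EFTF array, and the dimmer one is higher in every pair.

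In the spindle checkpoint role, 7 of 8 probe sets were higher on average in EFTF caps, against 54.1% of all probe sets. Their median log2 change was 0.59 over the 8. It shifted by at least the SD of its pair medians in 1 alternative fit and by less in 22. The block called 4 higher, against 4.91% of all probe sets. *mad2l1.S* encodes MAD2, which binds CDC20 to hold the anaphase promoting complex. It read 7.55, 7.87, 8.44 and 7.97 in EFTF and 7.04, 6.74, 6.80 and 7.29 in GFP caps. All EFTF arrays lay above all GFP arrays, by 0.99 ± 0.21 on average (adjusted p = 0.06, blocked adjusted p = 0.0395). A dimmer *mad2l1.S* probe set overlapped between the groups (0.05 ± 0.24, adjusted p = 0.949).

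*bub1b.L* encodes BubR1, which joins MAD2 in the inhibitory complex. It read 5.48, 6.06, 6.66 and 6.46 in EFTF and 4.86, 5.46, 5.14 and 5.44 in GFP caps. The groups were separate, with EFTF replicate 1 just above GFP replicate 2 (0.94 ± 0.27, adjusted p = 0.123, blocked adjusted p = 0.0352). *mad2l2.S*, a relative of *mad2l1* with a role in translesion DNA synthesis, was placed in the checkpoint role by its symbol alone. It read 6.38, 7.01, 7.27 and 6.65 in EFTF and 5.67, 6.26, 5.72 and 5.98 in GFP caps. Here too the groups did not overlap (0.92 ± 0.22, adjusted p = 0.0802, blocked adjusted p = 0.0351).

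*bub3.L*, the adaptor that brings BUB1 and BubR1 to kinetochores, read 7.78, 7.53, 7.89 and 8.77 in EFTF and 7.46, 6.92, 6.92 and 7.90 in GFP caps. The groups overlapped, but each EFTF array was above its GFP partner (0.69 ± 0.32, adjusted p = 0.314, blocked adjusted p = 0.0372). The checkpoint kinase genes *bub1.L* and *ttk.S* differed by 0.48 and 0.22, and *mad1l1.L*, which anchors MAD2, by -0.09 (adjusted p from 0.214 to 0.798).

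Of 11 centromere and kinetochore probe sets, 9 were higher on average, against 54.1% of all probe sets. The median was 0.48 (0.19 with a pseudocount of 16). The block called 4 higher, against 4.91% of all probe sets. NUF2 and NDC80 form the end of the NDC80 complex that grips the microtubule. *nuf2.L* read 7.35, 7.67, 7.72 and 8.16 in EFTF and 6.69, 7.09, 7.10 and 7.29 in GFP caps. The groups were separate, and replicate 1 was lowest and replicate 4 highest in both (0.68 ± 0.20, adjusted p = 0.126, blocked adjusted p = 0.0265). *ndc80.S* read 4.74, 5.21, 6.00 and 6.29 in EFTF and 4.42, 4.66, 4.84 and 5.46 in GFP caps. Its groups overlapped, while each EFTF array was above its partner (0.72 ± 0.37, adjusted p = 0.376, blocked adjusted p = 0.045).

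*cenpl.S*, of the constitutive centromere network, read 5.24, 6.36, 5.94 and 7.36 in EFTF and 4.95, 5.57, 5.08 and 5.91 in GFP caps. It too overlapped between groups and was higher in every pair, most of all in pair 4 (0.85 ± 0.43, adjusted p = 0.372, blocked adjusted p = 0.0474). *spc24.L*, at the inner end of the NDC80 complex, read 5.01, 5.40, 5.58 and 5.03 in EFTF and 4.94, 4.63, 4.50 and 4.70 in GFP caps. The groups were separate by a narrow gap (0.56 ± 0.17, adjusted p = 0.134, blocked adjusted p = 0.113). *mis12.L*, part of the platform that carries the NDC80 complex, differed by 0.48 ± 0.22 and was higher in every pair (adjusted p = 0.303, blocked adjusted p = 0.0487).

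The remaining genes of this role were dim or close to even. *cenpk.L* and *cenpm.L* were above background on 2 of 4 GFP arrays and differed by 0.50 and 0.39. *cenpn.L*, *cenpp.L* and *cenpv.L* differed by 0.10, -0.18 and -0.24, and *ska3.L*, of the complex that couples kinetochores to shrinking microtubules, by 0.18 (adjusted p from 0.287 to 0.893 over these 6 genes).

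All 17 probe sets for condensin, cohesin and other SMC proteins were higher on average in EFTF caps, from 0.06 to 1.25 on the log2 scale with a median of 0.52 (0.33 with a pseudocount of 16). In limma 0 were called without the block, against 1.42% of all probe sets, and 0 with it, against 10.2%. An unadjusted p below 0.05 without it was found for 6, against 9.3% of all probe sets in the higher direction. *ncapd3.L*, a subunit of condensin II, which works in the nucleus from early prophase, had the largest increase on average of all members. It read 6.24, 6.55, 7.01 and 7.50 in EFTF and 6.12, 5.42, 5.15 and 5.63 in GFP caps. The groups were separate, with replicate 1 of both close together, and the difference was 1.25 ± 0.30, or 2.37-fold (adjusted p = 0.0823, blocked adjusted p = 0.0586).

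*ncaph.S* encodes the kleisin that closes the ring of condensin I. It read 4.41, 5.15, 5.99 and 6.60 in EFTF and 4.14, 4.33, 4.16 and 5.37 in GFP caps. The groups overlapped because GFP replicate 4 stood above the other GFP arrays (1.03 ± 0.49, adjusted p = 0.327, blocked adjusted p = 0.0564). *ncapd2.S*, another subunit of condensin I, read 6.70, 7.08, 7.82 and 7.77 in EFTF and 6.60, 6.22, 6.10 and 7.05 in GFP caps. Only GFP replicate 4 lay inside the EFTF range (0.85 ± 0.31, adjusted p = 0.201, blocked adjusted p = 0.0896).

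The condensin ATPase genes *smc2.L* and *smc4.L* differed by 0.85 ± 0.39 (adjusted p = 0.32) and 0.27 ± 0.17 (adjusted p = 0.511). *ncapg.L*, *ncaph.L*, *ncapg2.L* and one *ncaph2.L* probe set lay between 0.52 and 0.67 (adjusted p from 0.235 to 0.513). A dimmer *ncaph2.L* probe set differed by 0.17 ± 0.13 (adjusted p = 0.592). The *smc6.1.L* probe sets differed by 0.49 ± 0.26 (adjusted p = 0.387) and 0.06 ± 0.11 (adjusted p = 0.867). The second of these was above background on 2 arrays of each group. The cohesin ATPase genes *smc3.L* and *smc1a.L* were each read by 2 probe sets, which gave 0.52 and 0.45 for the first (adjusted p from 0.255 to 0.604) and 0.12 and 0.11 for the second (adjusted p from 0.842 to 0.844). *smc5.S*, of the SMC5/6 complex of DNA repair, was separate between groups with a difference of 0.28 ± 0.12 (adjusted p = 0.268).

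The 16 probe sets for the anaphase promoting complex, its activator CDC20 and separase had a median of 0.20 (0.10 with a pseudocount of 16, and 0.13 with equal array medians). *cdc23.S*, a scaffold subunit, had the lowest adjusted p among members that were higher on average. It read 5.48, 5.76, 5.91 and 5.89 in EFTF and 5.20, 4.90, 5.17 and 5.13 in GFP caps. The groups were separate with little spread in either (0.66 ± 0.13, adjusted p = 0.056, blocked adjusted p = 0.037). The *cdc23.L* probe sets differed by 0.30 ± 0.10 (adjusted p = 0.18) and 0.30 ± 0.18 (adjusted p = 0.468). A probe set annotated to both homoeologs differed by 0.49 ± 0.24 (adjusted p = 0.345). *anapc11.L*, the RING subunit of the ligase, differed by 0.46 ± 0.19 (adjusted p = 0.251, blocked adjusted p = 0.1). *cdc27.S*, a subunit to which activators bind, read 5.03, 5.51, 5.48 and 6.70 in EFTF and 4.88, 5.23, 4.60 and 6.23 in GFP caps. Replicate 4 was the highest array of both groups (0.44 ± 0.44, adjusted p = 0.699, blocked adjusted p = 0.107).

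*cdc20.S* and *cdc20.L* encode the activator that the checkpoint holds. *cdc20.S* read 9.33, 8.96, 9.34 and 10.05 in EFTF and 9.48, 9.12, 9.49 and 9.54 in GFP caps. In 3 pairs the EFTF array was slightly below its partner, and EFTF replicate 4 was above every other array (0.01 ± 0.23, adjusted p = 0.991). *cdc20.L* showed the same arrangement (0.18 ± 0.30, adjusted p = 0.847). The probe sets for *anapc7.S*, *anapc10.L*, *anapc13.2.L*, *anapc15.S* and *anapc16.L* lay between -0.07 and 0.33 (adjusted p from 0.5 to 0.955). Of the separase genes, *espl1.S* differed by 0.16 ± 0.13 (adjusted p = 0.618) and *espl1.L* was above background on 1 array of each group.

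The chromosomal passenger complex corrects wrong attachments and later acts at the cell equator, and 5 of its 7 probe sets were higher on average. *cdca8.L*, encoding borealin, read 4.88, 5.40, 5.76 and 6.55 in EFTF and 4.50, 4.72, 5.01 and 5.44 in GFP caps. The groups overlapped, and every EFTF array was above its partner (0.73 ± 0.35, adjusted p = 0.345, blocked adjusted p = 0.0352). The Aurora B kinase gene *aurkb.L* read 8.79, 8.82, 8.94 and 8.53 in EFTF and 8.67, 8.19, 8.04 and 7.80 in GFP caps. GFP replicate 1 alone lay inside the EFTF range (0.59 ± 0.19, adjusted p = 0.161, blocked adjusted p = 0.0612). Its homoeolog *aurkb.S* differed by 0.38 ± 0.19 (adjusted p = 0.348, blocked adjusted p = 0.092). The scaffold genes *incenp.L* and *incenp.S* differed by 0.23 and 0.07, and the survivin genes *birc5.L* and *birc5.S* by -0.16 and -0.22 (adjusted p from 0.677 to 0.923).

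The role of entry and exit kinases and phosphatases held 30 probe sets, placed there by symbol, with all CDKs and Polo relatives among them. On average 24 were higher (80.0%, against 54.1% of all probe sets), with a median of 0.24 (0.13 with a pseudocount of 16). Its 10 probe sets for CDKs outside *cdk1* and *cdk2* had a median of 0.13, with 7 higher. *cdc25a.L* encodes a phosphatase that activates CDKs. It read 7.14, 7.46, 8.03 and 8.29 in EFTF and 6.24, 6.42, 6.50 and 7.60 in GFP caps. Only GFP replicate 4 lay inside the EFTF range, and the difference was 1.04 ± 0.35, or 2.06-fold (adjusted p = 0.18, blocked adjusted p = 0.0265). A dimmer *cdc25a.L* probe set, above background on 1 GFP array, differed by 0.15 ± 0.14 (adjusted p = 0.672). *cdc25c.L*, whose product activates CDK1 at entry, differed by 0.74 ± 0.38 (adjusted p = 0.377, blocked adjusted p = 0.0613).

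*plk1.S*, encoding the Polo kinase of centrosome and spindle, was read by 3 probe sets. The brightest of the called ones read 7.47, 7.61, 7.83 and 8.26 in EFTF and 6.93, 7.16, 6.90 and 7.40 in GFP caps. Its groups were separate by a narrow gap (0.70 ± 0.19, adjusted p = 0.118, blocked adjusted p = 0.0305). The dimmest was also separate and called with the block (0.84 ± 0.21, adjusted p = 0.0903, blocked adjusted p = 0.0478), and the other overlapped slightly (0.38 ± 0.19, adjusted p = 0.374, blocked adjusted p = 0.109).

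*cdk1.L* and *cdk1.S*, encoding the central mitotic kinase, differed by 0.57 ± 0.27 (adjusted p = 0.323) and 0.11 ± 0.25 (adjusted p = 0.894). The Aurora A genes *aurka.L* and *aurka.S* were 0.56 (adjusted p = 0.329) and 0.60 (adjusted p = 0.539) apart between EFTF and GFP caps. *wee1.S*, encoding the inhibitory kinase, was separate between groups (0.57 ± 0.19, adjusted p = 0.171), and *wee1.L* was not (0.38 ± 0.27, adjusted p = 0.561). Another *wee1.S* probe set was above background on no array.

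*plk4.L* and *cdk7.L* were lower on average in EFTF caps. *plk4.L* encodes the kinase that starts centriole duplication and read 5.29, 4.20, 4.92 and 4.93 in EFTF and 6.34, 5.59, 4.96 and 6.20 in GFP caps. It was lower in every pair, but in pair 3 by little (-0.04), and GFP replicate 3 lay inside the EFTF range. The difference was -0.94 ± 0.34 (adjusted p = 0.206, blocked adjusted p = 0.0614). PLK4 also acts in multiciliated cells, whose markers are given beside *rcc1.S*, and their part in this value was not tested.

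*cdk7.L* encodes the CDK-activating kinase, which is also part of the transcription factor TFIIH. It read 7.06, 5.49, 5.84 and 6.07 in EFTF and 7.23, 6.59, 6.34 and 8.02 in GFP caps. Each EFTF array was below its partner, most of all in pair 4, and the groups overlapped (-0.93 ± 0.44, adjusted p = 0.329, blocked adjusted p = 0.101). Its dimmer probe set had the same direction (-0.24 ± 0.11, adjusted p = 0.321).

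No CDK gene was called in either fit, against 1.42% of all probe sets without the block and 10.2% with it. With so few CDK probe sets, this count shows nothing particular to them. *cdk2.S*, whose product acts at the start of DNA replication, read 3.51, 4.02, 4.49 and 5.05 in EFTF and 3.38, 3.28, 3.02 and 3.98 in GFP caps. It was higher in every pair and overlapped between groups (0.85 ± 0.34, adjusted p = 0.249, blocked adjusted p = 0.0661). *cdk4.S*, the partner of D-type cyclins, read 8.41, 8.43, 8.93 and 10.33 in EFTF and 8.12, 8.30, 8.50 and 9.92 in GFP caps. Replicate 4 stood above the other arrays in both groups (0.31 ± 0.53, adjusted p = 0.847, blocked adjusted p = 0.109). *cdk9.L* and *cdk19.L*, kinases of transcription, differed by 0.63 and -0.01, *cdk10.L* by 0.79, and *cdk5.L*, *cdk17.S* and the brighter *cdk16.L* probe set by 0.07 to 0.17 (adjusted p from 0.225 to 0.977). The dimmer *cdk16.L* probe set read 3.52, 3.59, 3.65 and 3.92 in EFTF and 3.51, 3.08, 3.29 and 3.33 in GFP caps. Its groups were separate, with replicate 1 of both nearly level (0.37 ± 0.13, adjusted p = 0.209, blocked adjusted p = 0.129). The Polo relatives *plk2* and *plk3* lay between -0.04 and 0.09 on 5 probe sets, of which those for *plk2.L* alone, *plk3.L* and *plk3.S* were close to background.

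Among spindle assembly and cytokinesis genes besides *rcc1*, *haus8.L* and *racgap1.L* had the largest differences. *haus8.L*, encoding the augmin subunit that binds microtubules, read 4.56, 4.66, 5.40 and 5.86 in EFTF and 4.42, 3.75, 4.36 and 4.26 in GFP caps. The groups were separate, narrowly at replicate 1 (0.92 ± 0.31, adjusted p = 0.171, blocked adjusted p = 0.0621). The augmin genes *haus2.L* (0.26, adjusted p = 0.52) and *haus3.L* (0.18, adjusted p = 0.858) showed smaller values. *racgap1.L*, of the centralspindlin complex that directs the cleavage furrow, read 6.20, 6.30, 6.82 and 6.96 in EFTF and 5.76, 5.90, 5.85 and 6.23 in GFP caps. GFP replicate 4 lay just inside the EFTF range (0.64 ± 0.20, adjusted p = 0.15, blocked adjusted p = 0.0392), and the homoeolog *racgap1.S* differed by -0.02 ± 0.18 (adjusted p = 0.977).

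**Figure D3:**
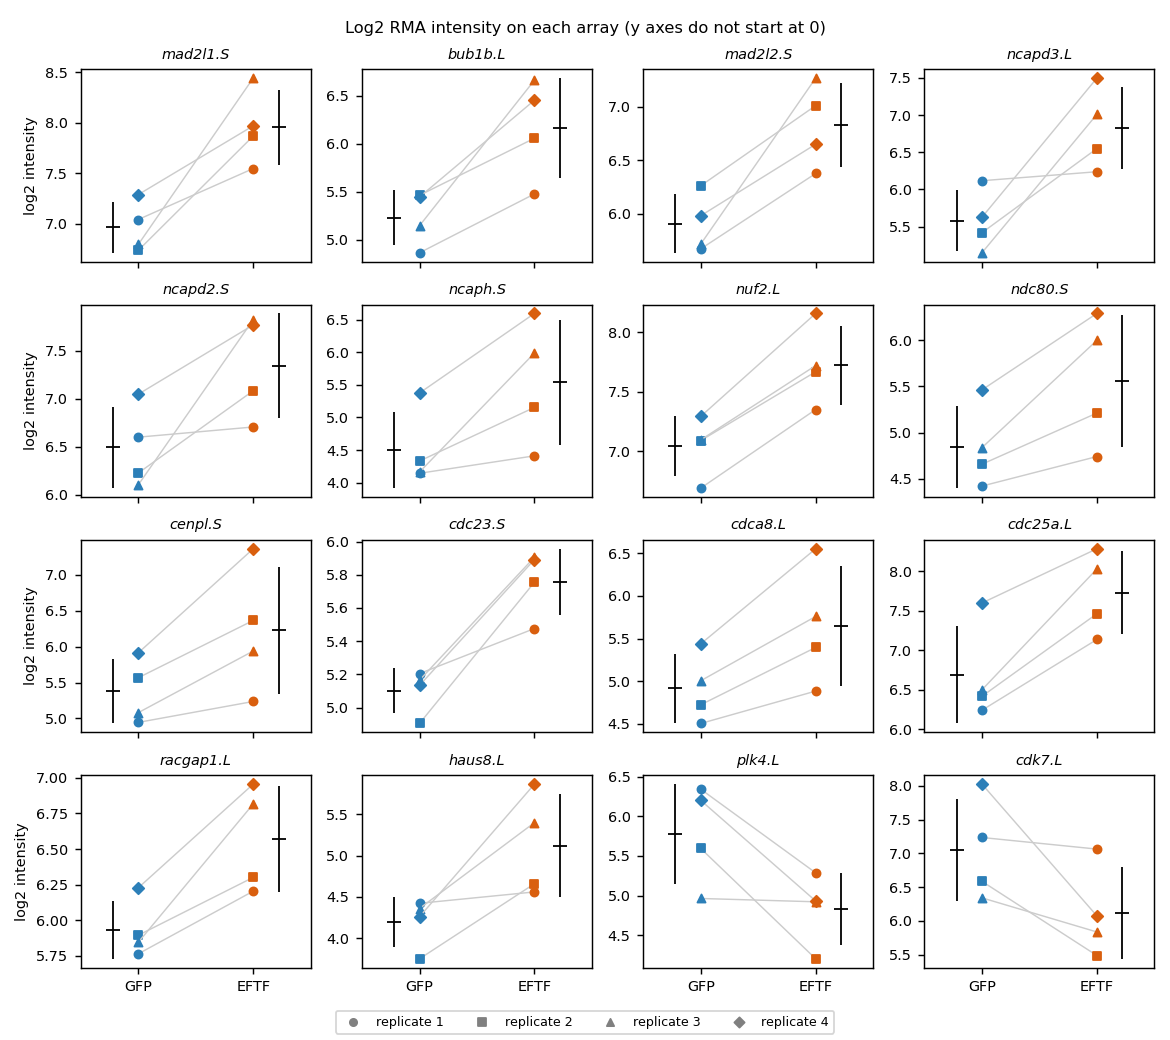
Log2 RMA intensity of 16 members on each array, with same-numbered GFP and EFTF arrays joined and group means with SD (n = 4) beside the points. In the first 14 panels each EFTF array lies above its GFP partner, and for *plk4.L* and *cdk7.L* each lies below it.

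The size of the difference varied between replicate pairs. The median EFTF minus GFP difference over the 97 members was 0.11 in pair 1, 0.21 in pair 2, 0.49 in pair 3 and 0.48 in pair 4, with 61, 71, 78 and 81 members higher. Over all probe sets the median was -0.03, 0.02, 0.05 and 0.04. The condensin, cohesin and SMC genes ranged from 0.11 in pair 1 to 1.08 in pair 3, and the checkpoint genes from 0.37 in pair 1 to 0.70 in pair 3. EFTF was above GFP in all 4 pairs for 48 members (49.5%, against 19.0% of all probe sets) and below in all 4 for 5 (5.15%, against 16.5%).

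Within EFTF caps, replicate 1 was the lowest array for 52 members (53.6%, against 27.3% of all probe sets). Replicate 4 was the highest array of both groups for 34 members (35.1%, against 17.6%), with *cdk4.S*, *ndc80.S* and *cdca8.L* among them. Marker lists also differed least in pair 1. The median of the neural progenitor probe sets was 0.36 in pair 1, 2.01 in pair 2, 2.56 in pair 3 and 2.36 in pair 4, and that of the multiciliated cell probe sets was -0.84, -1.36, -2.46 and -1.99. The summed linear intensity of the neural markers was 5651 to 9785 on EFTF and 1472 to 2977 on GFP arrays. Their part in the values of the mitosis genes was not tested.

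**Figure D4:**
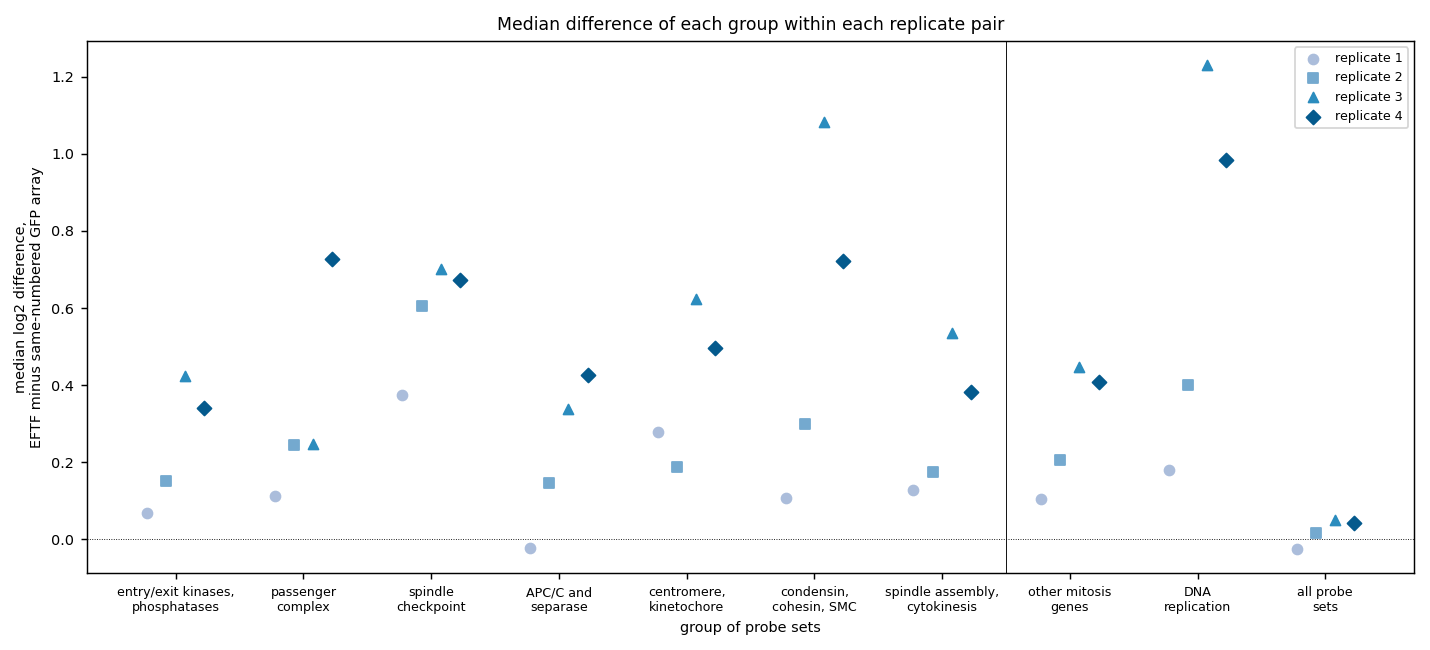
Median log2 difference between EFTF and same-numbered GFP arrays for each role, for other mitosis genes, for DNA replication genes and for all 15491 probe sets, with 1 symbol per replicate pair. The members as a whole had medians of 0.11, 0.21, 0.49 and 0.48 in pairs 1 to 4, and all probe sets stayed near 0.

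*X. laevis* carries many genes as a pair of homoeologs, named L and S, from an ancient genome duplication. Both copies were measured for 14 of the genes, and in 11 their changes had the same sign. Where both copies were above background on at least 4 arrays, this held for 10 of 12 genes, among members of which 83.5% were higher on average. The exceptions among these were *racgap1* and *rcc1*, for which L and S differed by 0.66 and 2.69, while *espl1.L* and *plk2.L* were near background. Each copy was represented by its brightest probe set. The dimmer *rcc1.S* probe set (0.48) had the same sign as *rcc1.L* (0.27), so the *rcc1.S* probe sets also differed in sign from each other. The copies of *aurka*, *birc5* and *plk3* differed by 0.07 or less, but both *plk3* copies were close to background, above it on 3 arrays of each group. None of these differences was tested, and how far a probe set reads both copies was not examined.

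Mitosis genes outside the rule comprised 104 probe sets for cyclins, mitotic kinesins and further genes of the spindle, cohesin, cytokinesis and cell cycle control. On average 85 were higher in EFTF caps (81.7%, against 54.1% of all probe sets), with a median of 0.35. In limma without the block 0 were called, against 1.42% of all probe sets. That fit gave an unadjusted p below 0.05 for 25 that were higher (against 9.3%) and 3 that were lower (against 7.98%). With the block 21 were called higher and 3 lower, against 4.91% and 5.25% of all probe sets. The median was 0.50 for the 26 probe sets of cyclins and kinesins (9 called higher with the block and 2 lower), 0.35 for the 55 of spindle, cohesin and cytokinesis genes (10 and 0) and 0.10 for the 23 of entry and exit genes (2 and 1). The 3 lower probe sets read *ccna1.L* and *ccna1.S*, encoding the cyclin A1 of the egg and early embryo, and *bora.S*, whose product helps Aurora A to activate PLK1. The called *bora.S* probe set differed by -1.43 ± 0.38, and another *bora.S* probe set by -0.38 ± 0.39 (adjusted p = 0.711, blocked adjusted p = 0.177). *ccna1.L* had a mean log2 level of 7.28 ± 0.89 (SD, n = 4) with the EFTFs and 9.24 ± 0.29 without, a difference of -1.96 ± 0.41 (adjusted p = 0.059, blocked adjusted p = 0.0262). Multiciliated cell markers, given beside *rcc1.S*, were lower too, and their part in the *ccna1* values was not tested. *ccna2.L*, the cyclin A of somatic cells, was at 6.74 ± 1.35 and 4.86 ± 0.39, a difference of 1.89 ± 0.60 (adjusted p = 0.158, blocked adjusted p = 0.0378).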

How the data were processed

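RNA from 4 EFTF and 4 GFP animal cap samples was read on single-colour Affymetrix *Xenopus laevis* arrays, 1 array per sample. The deposited values are intensities on a linear scale, which the authors made with RMA (background correction, quantile normalisation and probe set summary). The methods of the study also mention a scaling in GeneSpring, but the sources used here do not say whether it is part of the values or which arrays were processed together. RMA draws low values together, so differences of dim probe sets are understated. Of 15611 probe sets, 120 control probe sets were left out and 15491 were tested. Symbols came from the platform annotation, which gave 1 symbol to 9304 probe sets, several to 195 and none to 5992. All 95 member probe sets with 1 symbol matched the RefSeq gene table of assembly Xenopus_laevis_v10.1 with the same symbol.

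Intensities were transformed to log2, and the groups were compared by the two-sided moderated test of limma (version 3.58.1, run in R 4.3.3). P-values were adjusted by Benjamini-Hochberg across the 15491 probe sets, and an adjusted p below 0.05 was a call. Log2 changes are EFTF minus GFP with SE. The brightest of 17 control probe sets that match no frog transcript set the background of each array. Precision is limited by the number of arrays. The members had a median within-group SD of 0.33 on the log2 scale.

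Replicate numbers came from the sample titles. Deviations from the group means of same-numbered arrays correlated at 0.439, 0.595, 0.217 and 0.639 for replicates 1 to 4. GFP replicate 3 correlated more with EFTF replicate 2 (0.281) than with EFTF replicate 3. The fit with the replicate number as a block is therefore given beside the fit without it. On simulated data of 15491 probe sets with 100 changed per size, limma recovered 27 of those changed by 1 on the log2 scale and 70 of those changed by 2, with 6 false calls. With the block it recovered 17 and 53, with 0 false calls. The simulated arrays were independent, with no replicate effect, and the changed probe sets were drawn from the brighter ones. These counts therefore cannot show how the block performs where same-numbered arrays deviate together, or how dim probe sets fare.

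The members, their roles and the other gene lists were chosen with earlier results of these data known. Genes were named when called without the block, when separate between groups and at least 2-fold different, or when among the 3 largest changes of a role (brightest probe set, above background on at least 4 of 8 arrays). All others given with values, such as *bub3.L*, *mis12.L*, *plk1.S*, *cdk1*, *cdc20*, *ccna1* and *bora*, were chosen after their values were seen. No test was run on a list.

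Alternatives were the replicate block, replicate 4 as a batch, replicates 1 to 3 only (the methods describe triplicates), equal array medians, quantile normalisation, a pseudocount of 16, a filter on dim probe sets, an equal-variance test, another eBayes setting, a 2-fold limit with no test, and leaving out each array. Leaving out each pair under the block, and the block with equal medians or quantile normalisation, were added after seeing the data.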

Additional observations from a re-analysis of the deposited data

Results flagged for a closer look

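*ncaph.S*, of condensin I, read 5.37 on the log2 scale in GFP replicate 4, where the other GFP arrays lay between 4.14 and 4.33. The gap to the nearest array was 0.848 of the range of the group, above Dixon's critical value for 4 values. It was the only such array among the 42 groups of 4 values examined for the named probe sets, and chance alone gives such a gap in about 1 group in 20.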

How the results depend on the processing

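The median log2 change of the members (0.31) stayed between 0.19 with a pseudocount of 16 and 0.45 with the block and without replicate pair 1, and no named probe set changed direction under any alternative. With a pseudocount of 16 the median fell for centromere and kinetochore genes (0.48 to 0.19), entry and exit genes (0.24 to 0.13) and the anaphase promoting complex (0.20 to 0.10). That of the condensin, cohesin and SMC genes fell too, as given with that role. The median of the passenger complex (0.23) ranged from 0.05 when EFTF replicate 4 was left out to 0.39 when EFTF replicate 1 was, and that of spindle assembly and cytokinesis (0.26) was 0.16 without GFP replicate 3 or EFTF replicate 4. The count of members called (1 in limma without the block) depended on the fit. With replicate 4 as a batch it was 7 (6 higher), and with the replicate block 15. It was 0 with replicates 1 to 3 only, 2 after quantile normalisation (*mad2l1.S* higher and *rcc1.S* lower), 0 with the equal-variance test, and 4 at a 2-fold limit with no test. Leaving out single arrays gave 0 to 7, with 7 without EFTF replicate 1 and 0 without EFTF replicate 2, 3 or 4 or GFP replicate 2 or 3. Under the block, leaving out a replicate pair gave 0 to 24, equal array medians 13 (11 higher), and quantile normalisation 16 (14 higher), with *plk4.L* called lower in both of the last. Of the other mitosis genes, 0 were called without the block and 24 with it, 11 with replicate 4 as a batch, 1 with the filter on dim probe sets, 1 with the other eBayes setting, 0 to 6 without single arrays, and under the block 0 to 24 without a pair, 22 with equal medians and 26 after quantile normalisation. Where the share of all probe sets called is not given for a fit, its counts cannot be read as particular to mitosis genes. *rcc1.S* kept its call in 13 of 23 alternatives. The causes were not tested. Differences of members near background are limited by the signal.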

Other observations

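Genes of DNA replication were read by 44 probe sets, with a median log2 change of 0.66. Of these, 39 were higher on average in EFTF caps (88.6%, against 54.1% of all probe sets). In limma without the block 0 were called. That fit gave an unadjusted p below 0.05 for 24 that were higher, against 9.3% of all probe sets. With the block 14 were called higher, against 4.91%. Genes of the MCM helicase, which opens the double helix ahead of the fork, lay between -0.15 and 1.79, and those named here were chosen after their values were seen. *mcm4.L* read 4.59, 5.17, 6.38 and 6.48 in EFTF and 3.84, 3.43, 3.64 and 4.63 in GFP caps, a difference of 1.77 ± 0.46 (adjusted p = 0.0985, blocked adjusted p = 0.0299). *mcm5.L* read 6.85, 7.72, 8.02 and 8.44 in EFTF and 6.21, 5.85, 5.76 and 6.93 in GFP caps, a difference of 1.57 ± 0.38 (adjusted p = 0.0804, blocked adjusted p = 0.0286). *mcm6.L* differed by -0.15 ± 0.12 (adjusted p = 0.635), and for *mcm3.L* EFTF arrays averaged 3.22 ± 0.14 and GFP arrays 3.22 ± 0.24 (adjusted p = 0.996, with SD over 4 arrays). *mcm3.L* was close to background, above it on 3 EFTF arrays, so its even reading is limited by the signal. Over these 44 probe sets the median was 0.18 in pair 1, 0.40 in pair 2, 1.23 in pair 3 and 0.98 in pair 4.

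Markers of ionocytes, the ion-transporting cells of the frog epidermis, were read by 8 probe sets. All 8 were lower on average in EFTF caps, with a median of -2.82. Without the block 2 were called lower (against 0.658% of all probe sets), and with it 6 (against 5.25%). Of 20 probe sets for epidermis markers, 16 were lower on average and 4 higher, with a median of -0.41, and without the block 1 was called, in the higher direction (*krt19.S*). With the block 1 was called higher and 2 lower (*cdh1.S* and *grhl1.L*), against 4.91% and 5.25% of all probe sets.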
